A study of Mus musculus with 24 samples.

Results

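Lyz1 and Lyz2 are the mouse genes for the secreted lysozymes, and they were followed as 2 of the 54446 genes counted in CD11b+ myeloid cells from MC38 colon carcinomas. They were matched by symbol to ENSMUSG00000069515.6 and ENSMUSG00000069516.8. Both were selected on their counts in these 24 libraries, since Lyz2 carries Cre in one of the genotypes and stood out between them, so that their levels and differences are a description and carry no test. The cells came from WT mice, which carried Ythdf2 fl/fl without Cre, or from cKO mice, which carried Ythdf2 fl/fl and Lyz-Cre, all on C57BL/6J and of both sexes. Tumors were not irradiated (Ctrl, sham treatment in the methods) or received 20 Gy of local irradiation (IR) and were collected 3 days later. Each of the 4 conditions has 3 Input libraries of polyadenylated RNA and 3 libraries of RNA that was pulled down for N6-methyladenosine (m6A IP), which makes 24 libraries in 8 groups. The methods call the replicates technical in one place and biological in another and describe cells of pooled mice, so that errors measure the spread between libraries.

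Lysozyme is an antibacterial enzyme that cuts peptidoglycan, the polymer of the bacterial cell wall. Lyz2 encodes the M form, which macrophages, monocytes and neutrophils make in large amounts, and Lyz1 encodes the P form, known from Paneth cells of the small intestine. Lyz2 is also the locus that drives recombinase in Lyz-Cre mice, in which the Cre coding sequence sits at the start codon of Lyz2, so that an allele with Cre makes no normal Lyz2 transcript. The cKO libraries therefore differ from the WT libraries at Lyz2 itself as well as at the floxed gene, and no group carried Cre without the floxed Ythdf2 alleles. The number of Cre alleles per mouse was not given in the sources used here. YTHDF2 is a reader of m6A that speeds the decay of the transcripts it binds.

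Both genes lie on the reverse strand of chromosome 10 in mm10 and are neighbors. Lyz2 spans chr10:117277331-117282321 and Lyz1 spans chr10:117287797-117292868, and 5475 bp separate them. Each has 1 annotated transcript with 4 exons, of 1316 bases for Lyz2 and 1263 bases for Lyz1, and no other annotated gene overlaps either of them. The start codon and the bases after it are shown because Cre sits there in Lyz-Cre alleles, with the start codon in capitals (Lyz2 at chr10:117282213-117282242 and Lyz1 at chr10:117292809-117292838, reverse strand, in exon 1).
Lyz2: ATGaagactctcctgactctgggactcctc
Lyz1: ATGaaggctctcctgactctgggactcctc
The 30-base windows differ by 1 substitution, G7A from Lyz1 to Lyz2, counted from the A of the start codon.

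The transcripts were closely alike. Of 1262 aligned bases, 1211 (96.0%) were identical, and the coding sequences, each of 444 bases, were 95.0% identical. Identity was 91.6% in exon 1, 96.4% in exon 2, 100% over the 79 bases of exon 3 and 96.4% in exon 4, which holds the whole 3′ UTR. The longest identical run was 118 bases. The authors sequenced paired reads of 100 bases, and 24 of the 1164 windows of 100 bases in Lyz1 (2.06%) were found unchanged in Lyz2. A further share lay close to it, since 99 windows (8.51%) differed by at most 1 base and 308 (26.5%) by at most 2. Counts of the 2 genes can therefore be exchanged where a fragment covers few differences, and alignments that were not unique were tallied apart from the gene counts.

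The labels were set beside the levels of 3 genes. Lyz2 was selected on these counts, and Wdfy1 was the gene closest to it over the 24 libraries (r = 0.969). Both therefore describe 1 pattern and are no separate checks of the labels. Ythdf2, the targeted gene, was higher in the cKO Inputs, with 179 ± 6.27 CPM (counts scaled to the same total of gene counts per library) in cKO Ctrl and 226 ± 6.63 in cKO IR against 96.7 ± 1.18 in WT Ctrl and 103 ± 1.503 in WT IR (SD, n = 3 each). Gene-level counts include exons outside a deletion, so the counts do not show which exons were kept. Lyz2 itself was high in the libraries labelled cKO IR IP and low in those labelled WT IR IP, the opposite of the Inputs with the same labels. Wdfy1 had the same pattern, since its level was 26.0 and 27.2 CPM in WT Ctrl and WT IR Inputs, 5.69 and 4.82 in cKO Ctrl and cKO IR Inputs, 13.9 in WT Ctrl IP and 3.81 in cKO Ctrl IP, but 3.82 in the libraries labelled WT IR IP and 16.2 in those labelled cKO IR IP. The reversal was not seen for all genes with a genotype difference. Of 108 genes that were called with a fold of at least 2 in the same direction in both genotype comparisons of Inputs and could be fitted in the IP libraries, 17 were called in the Input direction and 22 in the opposite one in Ctrl IP libraries, against 11 and 35 in IR IP libraries. Over all genes fitted, 33.4% were called between genotypes in Ctrl IP and 43.4% in IR IP libraries. Every result from IP libraries is therefore given for Ctrl and IR apart, and the IR IP groups are named by their labels.

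Input libraries held 65180075 to 83661576 gene counts and IP libraries 68846321 to 86421888. No pair of replicates agreed within sampling noise (chi-square per degree of freedom of 3.48 to 34.3). The highest values were those of the WT IR Inputs, at 34.3, 16.5 and 9.11, and every pair in the other groups was at most 8.07. Itgam, which encodes CD11b, stood at 342 to 403 CPM as a mean of the 4 Input groups, and the 4 T cell markers summed to at most 0.195 CPM in any Input. The 3 Paneth cell defensins on the marker list, Defa17, Defa22 and Defa24, had 0 counts in all 24 libraries. The labels gave no batch.

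Lyz2 was among the most abundant transcripts of WT cells. It took 2.06% of gene counts in WT Ctrl Inputs and 2.03% in WT IR Inputs, and had rank 2 among all genes in each of these 6 libraries. The level was 20267, 20722 and 20699 CPM in the 3 WT Ctrl Inputs (mean 20563 ± 256) and 20891, 19665 and 20270 CPM in the WT IR Inputs (mean 20276 ± 613). The ranges of these groups overlapped, and the fitted log2 difference for irradiation in WT was 0.01 ± 0.02 (SE).

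In cKO cells Lyz2 stood at a few percent of the WT level and was well measured. It stood at 306, 298 and 301 CPM in the cKO Ctrl Inputs (mean 302 ± 3.62), which is 1.47% of WT Ctrl, and at 419, 409 and 420 CPM in the cKO IR Inputs (mean 416 ± 6.39), which is 2.05% of WT IR. These means rest on 21795 to 30046 counts per library, and Lyz2 still ranked between 373 and 564 among all genes. No cKO Input came near a WT Input. The fitted log2 differences were −6.10 ± 0.03 for cKO Ctrl vs WT Ctrl and −5.66 ± 0.03 for cKO IR vs WT IR. Among 16090 genes fitted, 2 had a lower value in the first comparison, and both were rare transcripts (0.234 CPM for Tex11 and 0.170 CPM for Gm4779 in WT Ctrl, both at 0 in cKO Ctrl). In the second, 11 genes were lower.

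Within the cKO Inputs, Lyz2 was higher after irradiation. The IR mean was 1.38 times the Ctrl mean, and the 3 IR libraries lay above the 3 Ctrl libraries without overlap. The fitted log2 difference was 0.45 ± 0.02 (SE), and it exceeded the value in WT by 0.44 ± 0.03. In order of level, the 4 Input groups were WT Ctrl and WT IR, which did not differ beyond their spread, then cKO IR and then cKO Ctrl. In bulk libraries fewer cells of a type and less RNA per cell cannot be told apart.

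**Figure D1:**
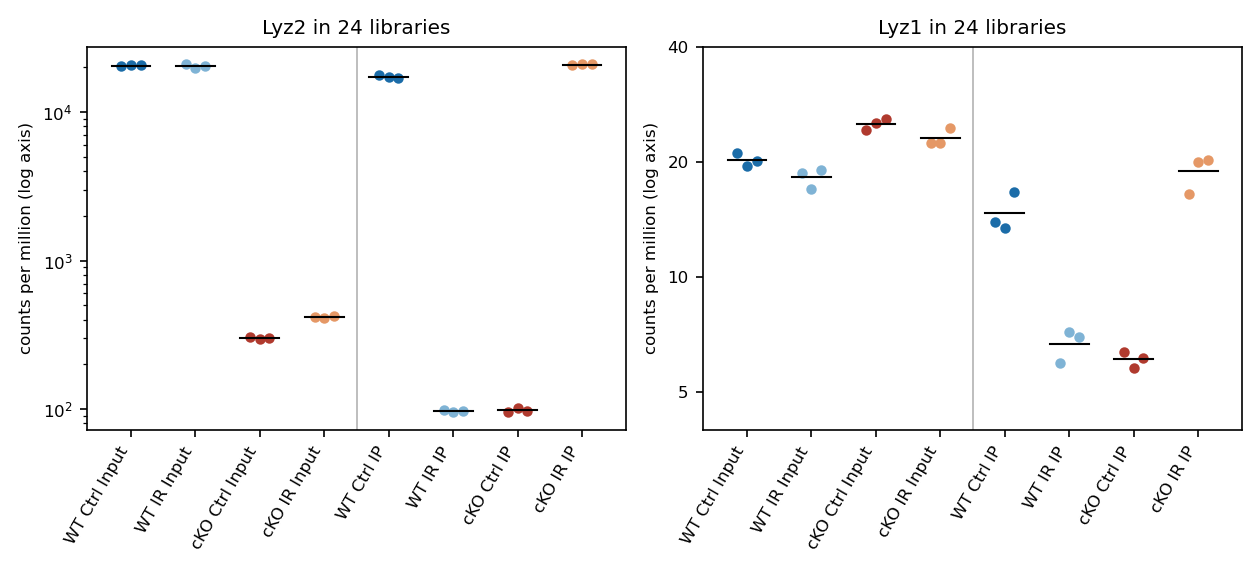
Level of Lyz2 (left) and Lyz1 (right) in each of the 24 libraries, in CPM on log axes. Points are libraries, black bars are group means, and the grey line divides Input from IP libraries; Lyz2 lies between 19665 and 20891 in the WT Inputs and between 298 and 420 in the cKO Inputs, whereas Lyz1 lies between 17.0 and 25.9 in all Inputs.

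Lyz1 was a minor transcript and was higher in the cKO Inputs. Its level was 21.1, 19.6 and 20.2 CPM in WT Ctrl (mean 20.3 ± 0.768) and 24.2, 25.3 and 25.9 CPM in cKO Ctrl (mean 25.2 ± 0.845). It was 18.7, 17.0 and 19.1 CPM in WT IR (mean 18.3 ± 1.08) and 22.5, 22.5 and 24.6 CPM in cKO IR (mean 23.2 ± 1.20). The cKO mean was 124% of WT in Ctrl and 127% in IR, with no overlap of libraries in either comparison. Fitted log2 differences were 0.30 ± 0.06 and 0.29 ± 0.06 (SE). In the comparison of Ctrl groups, 10.6% of all genes fitted had a higher value than Lyz1, and in the comparison of IR groups 24.4%.

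The mean Lyz1 level was slightly lower in IR than in Ctrl Inputs, by little more than the spread between libraries. The log2 difference was −0.12 ± 0.06 in WT, where the libraries did not overlap, and −0.13 ± 0.06 in cKO, where they did. Their difference was −0.01 ± 0.08. Of all genes fitted, 30.8% had a lower value than Lyz1 in WT and 36.1% in cKO. From highest to lowest, the Input groups were cKO Ctrl, cKO IR, WT Ctrl and WT IR, and the libraries of both cKO groups overlapped. Each Input held 1156 to 2118 Lyz1 counts. At the mean count of a group, counting alone limits the precision of a library to 2.27 to 2.84%. The spread between replicates was 3.36 to 5.90% of the mean.

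Because both genes are read in the same library, their ratio needs no scaling between libraries. In WT Ctrl Inputs there were 960, 1057 and 1027 Lyz2 counts per Lyz1 count (mean 1015 ± 49.9), and in WT IR Inputs 1115, 1153 and 1064 (mean 1111 ± 45.0). In cKO Ctrl Inputs there were 12.6, 11.8 and 11.6 (mean 12.01 ± 0.524), and in cKO IR Inputs 18.7, 18.2 and 17.1 (mean 17.98 ± 0.789). Lyz2 thus remained the more abundant of the paralogs in cKO cells. Per kilobase of exon, Lyz2 stood at 229 ± 2.75 CPM and Lyz1 at 19.9 ± 0.669 CPM in cKO Ctrl Inputs.

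**Figure D2:**
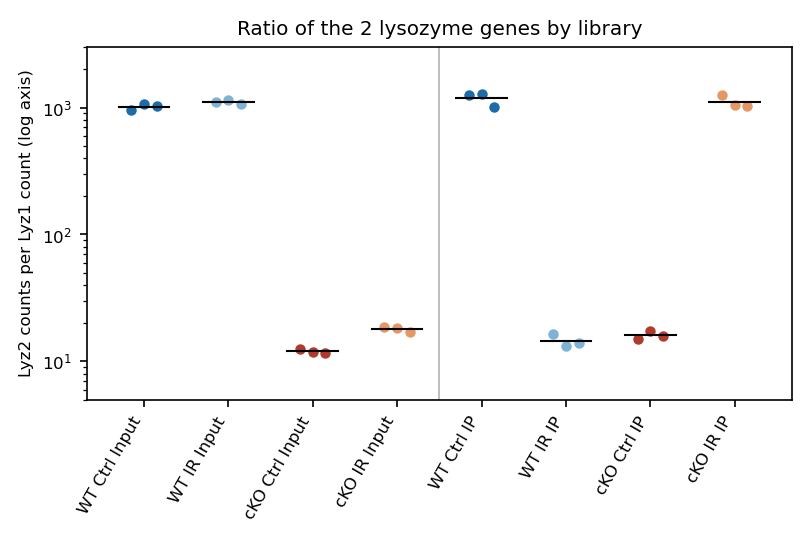
Lyz2 counts per Lyz1 count in each of the 24 libraries, on a log axis, with points for libraries and bars for group means. The WT Inputs, WT Ctrl IP and the libraries labelled cKO IR IP lie between 960 and 1290, and all others lie between 11.6 and 18.7.

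In the IP libraries the levels of Lyz2 formed the same 2 classes, with high and low reversed between the labels of the IR groups. Lyz2 stood at 17662, 17335 and 16938 CPM in WT Ctrl IP (mean 17312 ± 362) and at 96.2, 101 and 96.8 CPM in cKO Ctrl IP (mean 98.1 ± 2.77), which is 0.567% of WT. The libraries labelled WT IR IP held 98.3, 95.3 and 96.6 CPM (mean 96.7 ± 1.52), and those labelled cKO IR IP held 20642, 20924 and 20911 CPM (mean 20826 ± 159). The log2 difference between genotypes was −7.51 ± 0.02 in Ctrl and 7.75 ± 0.02 in IR, and no gene fitted had a more extreme value in either direction. Where Lyz2 was high it ranked first among all genes. The cKO Ctrl and WT IR groups, lowest in the order, did not differ beyond their spread.

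Lyz1 followed Lyz2 in the IP libraries, which it did not in the Inputs. Its level was 13.98, 13.4 and 16.7 CPM in WT Ctrl IP (mean 14.7 ± 1.76) and 6.36, 5.80 and 6.14 CPM in cKO Ctrl IP (mean 6.10 ± 0.285), so that cKO held 41.5% of WT. The libraries labelled WT IR IP held 5.97, 7.18 and 6.97 CPM (mean 6.71 ± 0.645) and those labelled cKO IR IP 16.5, 20.0 and 20.2 CPM (mean 18.9 ± 2.07). The 6 libraries high in Lyz2 were all above the 6 libraries low in Lyz2. Fitted log2 differences between genotypes were −1.31 ± 0.09 in Ctrl and 1.49 ± 0.09 in IR (SE). The ratio of the paralogs kept the 2 classes seen in the Inputs, with 1189 ± 153 in WT Ctrl IP, 16.1 ± 1.21 in cKO Ctrl IP, 14.5 ± 1.70 in the libraries labelled WT IR IP and 1109 ± 121 in those labelled cKO IR IP. The 96.0% identity of the transcripts stands beside this result, and its part in the Lyz1 counts was not tested.

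Enrichment by the antibody was read as the fitted log2 ratio of IP over Input within a condition. In WT Ctrl it was −0.46 ± 0.02 for Lyz2 and −0.68 ± 0.08 for Lyz1, and 35.9% and 30.1% of the 17373 genes fitted had a lower value. In cKO Ctrl it was −1.88 ± 0.02 for Lyz2 and −2.30 ± 0.09 for Lyz1, with 9.76% and 6.75% of genes lower. Both ratios were thus below that of the median gene (0.02 in either condition), and both were lower in cKO than in WT. Lyz1 counts followed the Lyz2 level in the IP libraries and not in the Inputs. The part of Lyz2 fragments in the Lyz1 ratios was not tested. In the IR conditions, where IP and Input of the same label lie in different classes of Lyz2 level, the value for Lyz2 was −7.96 ± 0.03 in WT IR and 5.48 ± 0.03 in cKO IR. Lyz1 stood at −1.70 ± 0.09 and −0.46 ± 0.08.

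**Figure D3:**
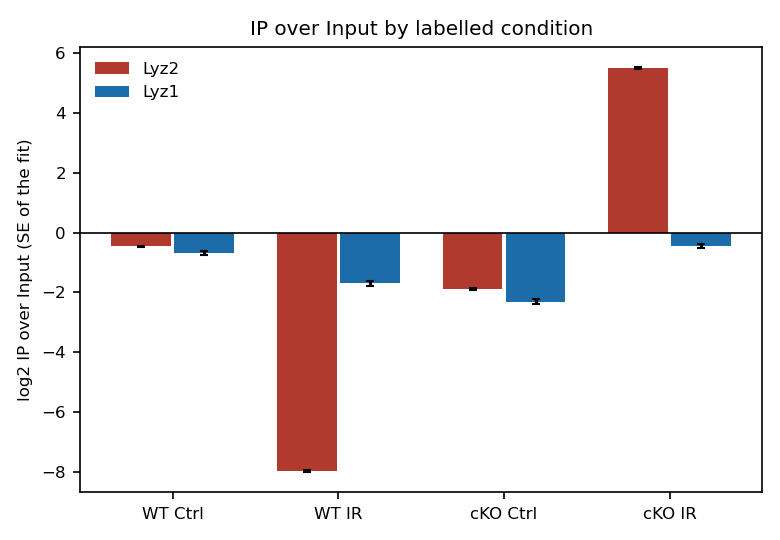
Fitted log2 ratio of IP over Input for Lyz2 and Lyz1 in the 4 labelled conditions; bars start at 0 and error bars are the SE of the fit. Lyz2 stands at −7.96 in WT IR and at 5.48 in cKO IR, whereas the other 6 values lie between −2.30 and −0.46.

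The deposited peaks, called by the authors per library and strand, were read for their positions over both genes. Whether they mark methylated sites was not tested. No library had a peak on the strand of Lyz1. On the strand of Lyz2, all 3 libraries labelled cKO IR IP had 4 peaks each, every one over another exon, WT Ctrl IP replicate 2 had 1 peak, and the other 8 IP libraries had none. WT Ctrl IP and the libraries labelled cKO IR IP thus differed in peaks, though both were high in Lyz2. Their Lyz2 levels were 17312 ± 362 and 20826 ± 159 CPM and did not overlap. The Inputs with these labels stood at 20563 and 416 CPM of Lyz2, and which Input served as control for which peak list was not given in the sources used here.

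The peak over exon 1 had the highest fold of the 4. Its fold over the control, as called by the authors, was 5.54, 6.88 and 7.27 in the 3 libraries labelled cKO IR IP, and 9.78 to 18.7% of all peaks in the same library had a higher one. The exon 2 peak reached 2.23, 2.45 and 2.53, the peak from intron 2 into exon 3 2.28, 2.68 and 2.38, and the exon 4 peak 1.79, 1.63 and 1.97. Between 63.9 and 94.6% of peaks in their library had a higher fold than these. The peak in WT Ctrl IP replicate 2 covered chr10:117280763-117280914, the end of intron 1 and the start of exon 2, with a fold of 2.08 and its summit 1521 bases from the gene start, where the exon 2 peaks of the cKO IR libraries also had theirs (1521 to 1524 bases). At a fold of at least 2, 9 of the 12 cKO IR peaks remained. The authors kept a limited number of duplicate reads per position in peak calling, while Lyz2 had 951 counts per exon base in WT Ctrl IP and 1275 in the libraries labelled cKO IR IP. The part of that limit in the folds was not tested.

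m6A is deposited at a short motif of which GGAC is the most common core. GGAC was searched on the strand of the transcript only, and it occurred 4 times in the Lyz2 transcript and 3 times in the Lyz1 transcript. The sites are shown with GGAC in capitals, in the order of the transcript, because the exon 1 peak summits fell on or near one of them.
Lyz2 5′ UTR, chr10:117282301-117282321: aaggagGGACttggaggatgc
Lyz2 exon 1 coding, chr10:117282207-117282231: cctgactctgGGACtcctcctgctt
Lyz2 exon 4 3′ UTR, chr10:117278008-117278032: ctaagtcacaGGACttcagcagaaa
Lyz2 exon 4 3′ UTR, chr10:117277909-117277933: gcacagccctGGACgctggtgacag
Lyz1 exon 1 coding, chr10:117292803-117292827: cctgactctgGGACtcctcctgctt
Lyz1 exon 4 3′ UTR, chr10:117288470-117288494: ccaagtaacaGGACttcagcagaaa
Lyz1 exon 4 3′ UTR, chr10:117287932-117287956: gcattcaggaGGACtagtgagctgt
The coding site is identical in both genes over the 25 bases shown and begins inside the start codon windows given above. Windows of 101 bases around the 3 exon 1 summits all held this site, at 0, 24 and 25 bases from the summit, and none of the windows around the other 10 Lyz2 summits held GGAC. Among 189260 peak summits of the 12 IP libraries, 34.4% of such windows held GGAC on the strand of the peak.

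**Figure D4:**
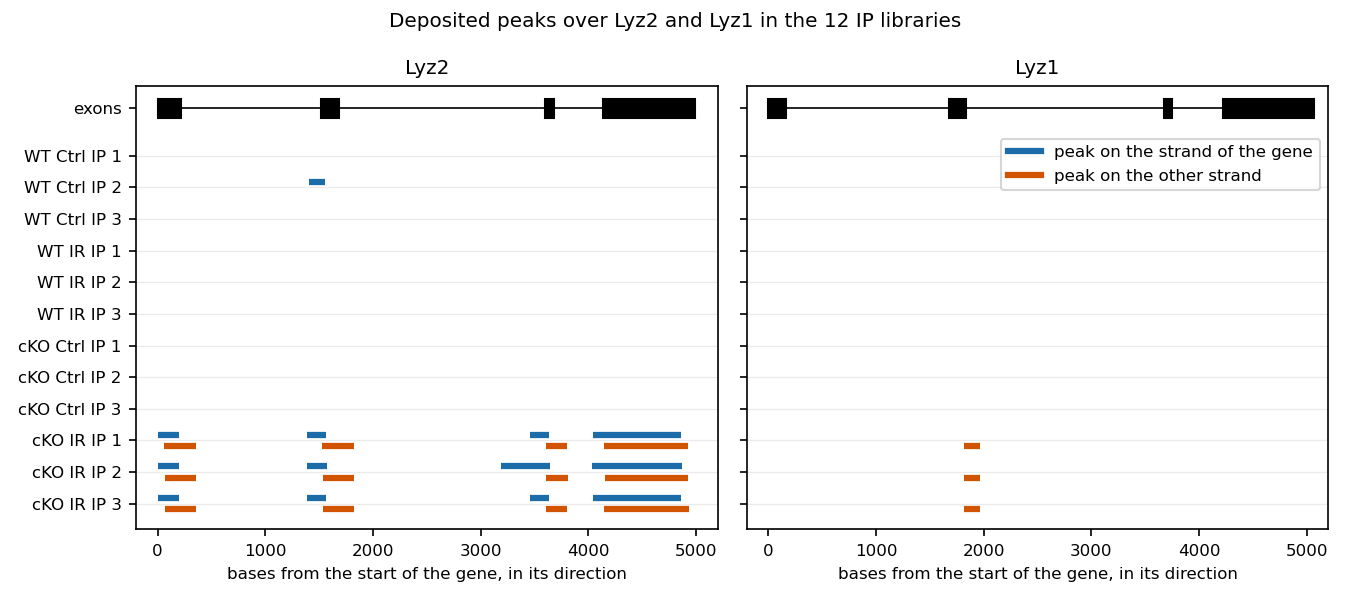
Deposited peaks over Lyz2 (left) and Lyz1 (right) in the 12 IP libraries, by distance in bases from the start of the gene in its direction of transcription; black boxes are exons, blue bars peaks on the strand of the gene and orange bars peaks on the other strand. The 3 libraries labelled cKO IR IP carry 4 blue and 4 orange bars over Lyz2 and 1 orange bar over Lyz1, and only WT Ctrl IP replicate 2 carries another bar.

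The same 3 libraries also had peaks on the opposite strand, where no gene is annotated. There were 4 per library over Lyz2 and 1 over Lyz1, and none in the other 9 IP libraries. Over exon 1 of Lyz2 the antisense fold was 41.3, 44.4 and 42.7, rank 3 by fold in each library, and over exon 4 it was 39.1, 40.6 and 32.5. These values stand beside a fitted IP over Input ratio of 44.7 for the Lyz2 counts in that condition, and 1.19 to 1.45% of all peaks in the 3 libraries were antisense to an exon with no gene on their own strand. The antisense peak over Lyz1 covered chr10:117290897-117291052 in intron 2 and the end of exon 2, with folds of 7.48, 5.65 and 6.59. The 156 bases under it matched the corresponding stretch of Lyz2 at 155 positions, and in all 3 libraries an antisense Lyz2 peak covered that stretch.

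The other genes of the lysozyme family gave almost no counts. Lyzl1, Lyzl6, Spaca5, Lyg1 and Lyg2 had 0 counts in all 24 libraries, and Spaca3 and Lalba, which encode a sperm protein and the milk protein alpha-lactalbumin, had 1 count each in all. Lyzl4 reached at most 0.560 CPM. The lysozyme-like gene directly next to Lyz2 on its other side, 9530003J23Rik (Lyzf1), lies 38628 bp away and had 1 count in all. Lyz2 thus made up nearly all lysozyme family counts in WT Inputs, where the 10 family genes summed to 20583 ± 256 CPM in Ctrl, and in cKO Ctrl Inputs they summed to 327 ± 3.11 CPM.

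Genes near Lyz2 were compared to see whether the difference extended along the chromosome. Apart from Lyz1, 22 annotated protein-coding genes overlapped the 1 Mb to either side of Lyz2, and 14 could be fitted. For cKO Ctrl vs WT Ctrl, 4 of the 14 were called, all of them higher, against 15.7% of all genes called, 8.05% higher and 7.61% lower (edgeR quasi-likelihood test, Benjamini-Hochberg adjusted). Mdm1 changed by 0.43 ± 0.14 on the log2 scale (adjusted p = 0.0496), Yeats4, a chromatin reader gene, by 0.26 ± 0.05 (adjusted p = 0.000406) and Rap1b, a small GTPase gene, by 0.17 ± 0.05 (adjusted p = 0.0267). Only 1 of the 14 was called without WT Ctrl Input replicate 1 or 2 or without cKO Ctrl Input replicate 1 or 2, and 2 were called without cKO Ctrl Input replicate 3. Mdm1 was not called in any of these 5 fits, and Rap1b was called in 1 of them. For cKO IR vs WT IR, 3 were called higher and 2 lower, against 47.7% of all genes called, 23.9% higher and 23.8% lower, and the largest changes among those called were those of Rap1b (0.56 ± 0.05), Yeats4 (0.50 ± 0.05) and Frs2 (−0.33 ± 0.07). The values of all 14 lay between −0.52 and 0.99 in the Ctrl comparison. Cpsf6, the gene next to Lyz1 on the far side of Lyz2, stood at 0.12 ± 0.04 (adjusted p = 0.0848) in the Ctrl comparison and at −0.11 ± 0.05 (adjusted p = 0.0593) in the IR comparison.

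**Figure D5:**
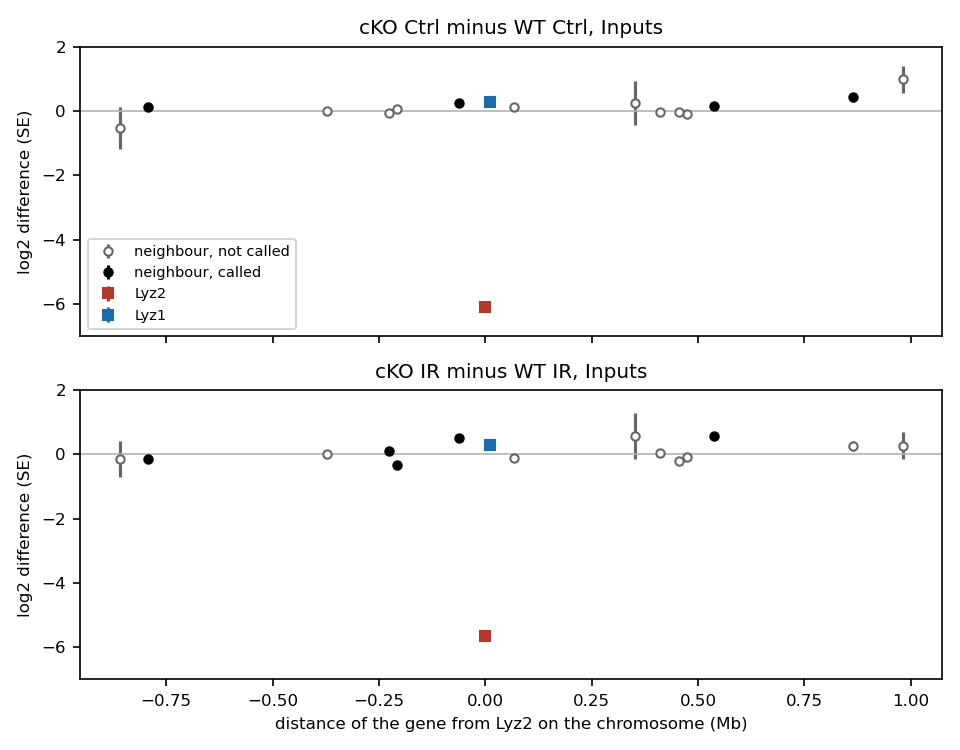
Fitted log2 difference between cKO and WT Inputs, with SE, for Lyz2, Lyz1 and the 14 protein-coding genes fitted within 1 Mb, against their distance from Lyz2. Filled circles passed the test at an adjusted p under 0.05; Lyz2 lies at −6.10 and −5.66, and every other gene lies between −0.52 and 0.99.

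Other genes of peptidoglycan handling and sensing, which include receptors for fragments of the polymer that lysozyme cuts, were compared next. Of the 13 genes on this list, 10 could be fitted, and for cKO Ctrl vs WT Ctrl 4 were called higher and 1 lower, against 8.05% and 7.61% of all genes, with a median of 0.23 against −0.00 over all genes. Pglyrp1, a peptidoglycan-binding protein of neutrophil granules, fell by 1.44 ± 0.07 on the log2 scale, Nod1, an intracellular sensor, rose by 0.35 ± 0.06, and Nlrp3 rose by 0.33 ± 0.03. For cKO IR vs WT IR, 3 were called higher and 2 lower, a share close to that of all genes (47.7% called, 23.9% higher and 23.8% lower), and the largest changes were those of Pglyrp1 (−0.42 ± 0.08), the sensor gene Nod2 (−0.36 ± 0.07) and the receptor gene Tlr2 (0.21 ± 0.03). Slc46a2, a transporter gene on the list, had 0 counts in all libraries.

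Of 21 genes for antibacterial proteins of phagocytes, 20 could be fitted. In the Ctrl comparison 5 were called higher and 11 lower in cKO (median −0.58), against 8.05% and 7.61% of all genes, and the largest changes were in neutrophil granule genes, with −1.99 ± 0.29 for Ctsg, −1.87 ± 0.15 for Elane and −1.74 ± 0.19 for Camp. In the IR comparison 8 were called higher and 6 lower (median 0.12), against 23.9% and 23.8% of all genes, and the largest changes were those of Ltf (−1.56 ± 0.04), Ngp (−1.54 ± 0.05) and Camp (−1.43 ± 0.39, adjusted p = 0.00464), which came to −0.92 without WT IR Input replicate 1. Camp was scarce in these Inputs, at 0.406 ± 0.213 CPM in WT IR and 0.156 ± 0.0874 CPM in cKO IR. Neutrophil markers moved with the granule genes named above. Their 7 genes summed to 1833 ± 45.8 CPM in WT Ctrl and 887 ± 3.37 in cKO Ctrl, with 6 called lower and 1 higher, against 7.61% and 8.05% of all genes, among them Retnlg (−1.51 ± 0.11), S100a9 (−1.45 ± 0.04) and S100a8 (−1.41 ± 0.08). In IR libraries 5 of the 7 were called lower in cKO and 1 higher, against 23.8% and 23.9% of all genes, with Ly6g at −1.11 ± 0.26, Retnlg at −0.95 ± 0.12 and Cxcr2 at −0.63 ± 0.09. Their sum overlapped between the IR groups, at 441 to 477 CPM in WT and 470 to 494 CPM in cKO, and it held Mmp9, which stood at 118 ± 3.98 CPM in WT and 177 ± 6.42 CPM in cKO. The 8 macrophage markers summed to 4704 ± 58.6 CPM in WT Ctrl and 4930 ± 62.7 in cKO Ctrl, and the 6 monocyte markers to 1639 ± 21.2 and 1632 ± 16.1. In Ctrl, 5 macrophage markers were called higher in cKO and 1 lower, and 3 monocyte markers higher and 2 lower. In IR libraries the macrophage sums were 4457 ± 200 CPM in WT and 4925 ± 66.9 in cKO. The monocyte sums were 1167 ± 1.08 and 945 ± 4.44 CPM. Among the monocyte markers was Fn1, at 389 CPM or more in every library, with a log2 difference of −0.74 ± 0.03 in IR. In the IR comparison 5 macrophage markers were called higher and 1 lower, and 4 monocyte markers higher and 2 lower. The monocyte sum thus fell although more of its genes were called higher. Of all genes, 8.05% were called higher and 7.61% lower in Ctrl, and 23.9% and 23.8% in IR. The part of cell composition in the Lyz1 and Lyz2 differences was not tested.

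Of 11 myeloid transcription factor genes, which include activators of lysozyme genes such as Spi1 and Cebpa, 3 were called higher and 2 lower in cKO Ctrl, against 8.05% and 7.61% of all genes. Cebpe, a factor of late granulocyte development, fell by 0.95 ± 0.13 on the log2 scale, Cebpd rose by 0.37 ± 0.03, and Cebpa fell by 0.26 ± 0.07. The Cebpa call was lost without WT Ctrl Input replicate 2 or without cKO Ctrl Input replicate 2 (−0.21 and −0.22). In the IR comparison 5 were called higher and 3 lower, against 23.9% and 23.8% of all genes, with Gfi1 at 1.17 ± 0.20, Cebpd at 0.73 ± 0.03 and Runx1 at −0.50 ± 0.04.

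The lists were also compared between IR and Ctrl, where Lyz2 in WT differed by less than its spread. For WT IR vs WT Ctrl, 2 of the 20 antibacterial genes were called higher and 14 lower, against 31.7% of all genes called, 14.7% higher and 17.0% lower. In cKO cells, 5 were called higher and 13 lower with irradiation, against 45.6% called, 21.8% higher and 23.8% lower. The effect of irradiation differed between genotypes for 9 of the 20, all of them higher in cKO relative to WT, against 30.2% of all genes called in either direction. Elane, which encodes neutrophil elastase, stood at 10.2 ± 1.02 CPM in WT Ctrl and at 0 counts in all 3 WT IR Inputs, which is at least 225-fold lower (against 3 counts per library). Mpo, which encodes myeloperoxidase, went from 34.4 ± 1.37 to 0.0296 ± 0.0389 CPM, and Ctsg from 2.67 ± 0.735 to 0.00505 ± 0.00875 CPM. In cKO the same 3 genes went from 2.81, 11.3 and 0.675 CPM to 0.0139, 0.0521 and 0.0146 CPM. Neutrophil markers fell in both genotypes, with 7 of 7 called lower in each. Of the peptidoglycan list, 1 was called higher and 3 lower in WT, with Pglyrp1 at −2.63 ± 0.08, and 7 lower and none higher in cKO, with Pglyrp1 at −1.60 ± 0.08. Of the transcription factors, 1 was called higher and 7 lower in each genotype, and Cebpe stood at −1.91 ± 0.14 in WT and −0.53 ± 0.14 in cKO.

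Genes whose pattern was most like that of Lyz2 over the 24 libraries were ranked by Pearson correlation of log2 CPM, after the mean of Input or IP libraries was taken away. Among 11197 genes Wdfy1 was closest (r = 0.969), followed by Cxcl14 (0.941), Zfp523 (0.935), Chst15 (0.914) and Sema6d (0.911). The scavenger receptor gene Marco (−0.951), Lrrc75a (−0.943) and Gm20559 (−0.938) were the most opposite. Lyz1 had an r of 0.608 and held place 324. The libraries form 2 classes of Lyz2 level, so that these values describe that split, and libraries of a group share their preparation. None of these genes moved as far as Lyz2: Zfp523 went from 9.64 CPM in WT Ctrl to 6.74 CPM in cKO Ctrl Inputs, and Marco from 539.7 to 765 CPM. For Lyz1 over the 12 Inputs, Daxx (r = 0.979), Cmtm3 (0.971), Slc13a3 (0.967), Timp2 (0.967) and Tor4a (0.966) were closest among 11661 genes, and Ston2 (−0.966), Gm44292 (−0.954) and Gm43813 (−0.948) the most opposite. Lyz2 had an r of −0.891 with Lyz1 there.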

How the data were processed

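The authors used Trimmomatic 0.39 to trim reads, which they aligned to mm10 with HISAT in a strand-specific setting and the GENCODE vM19 annotation, and then counted per gene by HTSeq. What the authors deposited for genes are unnormalized counts. Reads in no gene, left out, were 2.86 to 6.55% of a library. The authors called peaks per IP library and strand with MACS2, and the deposited lists hold a whole-number score, a summit fold (a ratio to the control), −log10 p-values and −log10 q-values. Here, 54409 of 54446 identifiers were matched to GENCODE vM21 without their version, and sequences came from the RefSeq assembly of the same build. CPM is relative to all gene counts of a library. Differences were fitted with edgeR 4.0.16 in R 4.3.3 (quasi-likelihood, TMM, at least 10 counts in at least 3 libraries, Benjamini-Hochberg threshold 0.05), with the 12 Inputs, the 12 IP libraries and all 24 libraries each in 1 fit, and the steps were tested on simulated data. DESeq2 1.42.0, RLE factors, other filters, smaller fits, a replicate block and leaving out single libraries were alternatives. A fit of the Ctrl libraries alone was added after seeing the data. Transcripts were aligned globally with Biopython 1.88. Equal replicate numbers did not pair libraries (correlations of deviations from group means −0.0429 to 0.0325). Named in each list were at most 3 called genes with the largest change, the genes next to Lyz1 and Lyz2, the 5 most and 3 least like genes, and members at 0. Genes and lists were chosen with earlier results of these data known. Groups were taken from the labels.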

Additional observations from a re-analysis of the deposited data

Results flagged for a closer look

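For both genes, the fitted differences between labelled genotypes had opposite signs in the Ctrl and the IR IP libraries. The differences between IR and Ctrl likewise had opposite signs in the IP libraries labelled WT and cKO. Each library followed its group. For Lyz2 the log2 difference of cKO against WT was −7.51 in Ctrl IP and 7.75 in IR IP, and that of IR against Ctrl was −7.46 in WT and 7.80 in cKO. For Lyz1 the genotype differences were −1.31 and 1.49, and the irradiation differences were −1.11 in WT and 1.70 in cKO. These reversals in the labelled IR IP groups were not tested, since both genes were chosen for their levels.

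In the Inputs, the log2 effect of irradiation in cKO less the effect in WT passed the test (edgeR quasi-likelihood, Benjamini-Hochberg adjusted) for 5 of 10 peptidoglycan genes, 9 of 20 antibacterial genes, 5 of 11 transcription factors, 5 of 7 neutrophil markers and 6 of 14 neighbors. It passed for 30.2% of all genes fitted. It also passed for 5 of 6 monocyte and 2 of 8 macrophage markers, whose values are not listed here. Values are given for 22 genes, which are those that the naming rule picked in any comparison from the first 5 of these sets, together with Ythdf2 and Wdfy1. Of these 22, 15 were above 0. Among the antibacterial and peptidoglycan genes it was 5.08 for Elane, 2.39 for Mpo, 1.53 for Lcn2 and 1.03 for Pglyrp1, and −0.42 for Nod2, −0.33 for Slc46a3 and −0.31 for Nlrp3. Among the transcription factors it was 1.51 for Gfi1, 1.38 for Cebpe, 0.36 for Cebpd and −0.44 for Runx1. Among the neutrophil markers it was 1.21 for S100a8, 1.13 for S100a9, 0.76 for Mmp9, 0.71 for Cxcr2 and 0.56 for Retnlg. Among the neighbors it was 0.39 for Rap1b, 0.25 for Yeats4, −0.27 for Cnot2 and −0.39 for Frs2, and it was 0.21 for Ythdf2 and −0.35 for Wdfy1. Elane had 0 counts in WT IR, so its value depends on the prior count of the fit and is no bound, and its call was lost without cKO IR Input replicate 1 (1.87) and without 6 other single libraries. The Mpo call was lost without WT IR Input replicate 3 or without cKO IR Input replicate 1 or 2, and over all libraries left out singly its value ranged from 1.81 to 4.17, the latter without WT IR Input replicate 2. The Slc46a3 and Wdfy1 calls were lost without several single libraries.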

How the results depend on the processing

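Over the alternatives run, the fitted Input differences of Lyz1 and Lyz2 moved by less than 1 SD. With each library left out in turn, Lyz2 ranged from −6.11 to −6.09 for cKO Ctrl vs WT Ctrl and from −5.69 to −5.64 for cKO IR vs WT IR, and Lyz1 from 0.28 to 0.33 and from 0.23 to 0.31. The near-zero irradiation value of Lyz2 in WT ranged from −0.01 to 0.04. IP over Input of Lyz2 moved by more than 1 SD in 4 cases: to −0.52 in WT Ctrl with RLE factors and with DESeq2, and to −8.01 in WT IR and 5.45 in cKO IR with a filter of 50 counts instead of 10. Counted per unshared 100-base window, the paralog ratio of Inputs came to 1061 for WT IR, to 11.5 for cKO Ctrl and to 17.2 for cKO IR. Genes called for cKO Ctrl vs WT Ctrl rose from 2520 to 3870 with only the 6 libraries of the contrast, and ranged from 1838 to 3425 with single libraries left out. Within 0.5 Mb of Lyz2 fewer neighbors were fitted, 9 against 14 within 1 Mb. Of the 9, 1 was called between the Ctrl groups, 3 between the IR groups and 7 for irradiation in cKO. Of all genes fitted, 15.7%, 47.7% and 45.6% were called in these comparisons. With single libraries left out, the neighbor count for cKO Ctrl vs WT Ctrl ranged from 1 to 5. With the replicate number as a block, 2283 genes were called for cKO Ctrl vs WT Ctrl and 7478 for cKO IR vs WT IR, and Lyz2 stood at −6.10 and −5.66. The numbers did not pair the libraries, and 2 of 12 Input pairs correlated best with their own number. The causes of these shifts were not tested. Intervals from counts cover counting error only. Gene counts cannot place reads in exons, and the overlap of the paralogs limits Lyz1, with 427 to 2118 counts per library, more than Lyz2.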
